A study of Mus musculus with 9 samples.

Results

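The 6 genes described here are the chemokine receptors Ccr4, Ccr8, Ccr2, Cxcr3, Cxcr4 and Cxcr6, measured in activated mouse CD4+ T cells given the flavone acacetin. They were taken by symbol from a table of 25757 gene entries, and each of the 6 symbols occurred there once. Naive CD4+ T cells from the spleens and lymph nodes of mice labelled WT were activated on plates coated with antibodies to CD3 and CD28 (5 μg/ml), the signals that stand in for antigen and costimulation. Acacetin, a plant flavone dissolved in DMSO, was present at 0, 5 or 10 μM, and RNA was taken on day 3. Each concentration had 3 libraries, labelled as biological replicates 1 to 3, 9 libraries in all. All 9 shared the activation, so resting cells are not among the groups, and the study calls the 0 μM group of such cultures vehicle. The study's methods name IMDM as the medium where the labels name RPMI 1640. The labels do not say which animals gave the cells of a replicate, so the p-values measure the spread between these cultures.

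Chemokine receptors are G protein-coupled receptors of the cell surface that steer leukocytes along gradients of chemokines. A bound receptor releases the inhibitory G protein Gi, whose subunits drive integrin activation and actin movement, and GRK kinases and arrestins then silence the receptor and take it into the cell. The set on a CD4+ T cell follows its differentiation: CXCR3 and CXCR6 are carried by Th1 and other effector cells, CCR4 and CCR8 by Th2 and regulatory T cells, and CCR2 by effector and memory cells. Cxcr4, the receptor of CXCL12, is usually counted as a homeostatic receptor and is broadly carried by T cells, so the group is not purely inflammatory.

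The totals per library ran from 19664981 to 24410715 estimated counts. All 10 markers listed for CD4 T cells exceeded 10 CPM (counts relative to the depth of the library, scaled by edgeR's TMM factors) at 0 μM. All 6 markers listed for B cells, all 5 for NK cells, all 5 for neutrophils, 5 of 6 for dendritic cells and 6 of 8 for monocytes and macrophages had a mean under 1 CPM at each concentration. Of the 2 listed for CD8 T cells 1 did, while Cd8b1 had means of 7.05, 6.66 and 6.09 CPM at 0, 5 and 10 μM. A pair of libraries stood apart. The 8 lung genes listed summed to 113.6 CPM in replicate 1 at 10 μM, against at most 39.2 in the others, and the 9 liver genes to 29.3 CPM in replicate 2 at 5 μM, against at most 2.43. Calls of chemokine receptors that change without this pair are given with and without it. The other named genes and lists were not examined without it.

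The promoters of the 4 receptors whose transcripts changed are shown first, because these are the stretches in front of the genes that the results are about. Each holds 250 bases before and 50 bases after the RefSeq start, in the assembly GRCm38.p6, which precedes the one the counts were made on. They are Ccr4 at chr9:114496495-114496794 on the minus strand, Ccr8 at chr9:120091883-120092182 on the plus strand, Cxcr3 at chrX:101734098-101734397 on the minus strand and Cxcr4 at chr1:128592250-128592549 on the minus strand, read 5′ to 3′ along the gene. Capitals mark matches, on either strand, to 6 short motifs, each named for the factor or box it belongs to and spelled out in the paragraph after the sequences.
Ccr4: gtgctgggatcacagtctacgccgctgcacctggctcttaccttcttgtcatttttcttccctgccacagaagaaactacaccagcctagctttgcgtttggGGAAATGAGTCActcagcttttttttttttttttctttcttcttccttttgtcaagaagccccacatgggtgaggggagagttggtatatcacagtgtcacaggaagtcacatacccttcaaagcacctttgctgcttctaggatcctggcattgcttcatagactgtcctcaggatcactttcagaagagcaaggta
Ccr8: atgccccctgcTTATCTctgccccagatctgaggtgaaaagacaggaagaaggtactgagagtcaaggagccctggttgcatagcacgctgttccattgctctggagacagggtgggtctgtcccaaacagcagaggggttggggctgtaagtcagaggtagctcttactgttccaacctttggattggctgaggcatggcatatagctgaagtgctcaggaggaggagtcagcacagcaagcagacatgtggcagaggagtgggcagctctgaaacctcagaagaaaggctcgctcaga
Cxcr3: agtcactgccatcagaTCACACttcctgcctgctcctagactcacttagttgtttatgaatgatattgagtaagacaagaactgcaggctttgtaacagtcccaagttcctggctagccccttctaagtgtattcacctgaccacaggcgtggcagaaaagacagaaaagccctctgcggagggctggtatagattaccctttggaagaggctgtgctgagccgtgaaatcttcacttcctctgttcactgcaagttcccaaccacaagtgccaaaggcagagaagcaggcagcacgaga
Cxcr4: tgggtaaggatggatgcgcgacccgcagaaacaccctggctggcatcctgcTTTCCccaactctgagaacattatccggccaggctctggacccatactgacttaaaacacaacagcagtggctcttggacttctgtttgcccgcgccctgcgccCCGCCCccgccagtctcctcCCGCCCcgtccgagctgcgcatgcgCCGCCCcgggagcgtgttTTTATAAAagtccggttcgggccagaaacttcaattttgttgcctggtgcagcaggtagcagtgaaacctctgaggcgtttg

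The Ccr4 promoter held an NFAT match (GGAAA) at -148 to -144, counted from the start. It was followed directly, with no overlap, by an AP-1 match (TGAGTCA) at -143 to -137. The AP-1 letters occurred in 5.2% of 32851 mouse promoters of this length and the NFAT letters in 61.3%. The Ccr8 promoter held a match to the letters of GATA factors (AGATAA) at -239 to -234 on the other strand, as 11.2% of promoters did on either strand. In the Cxcr3 promoter the letters of T-box factors (GTGTGA) were found at -234 to -229 on the other strand, as in 14.5% of promoters. The Cxcr4 promoter held neither of these but had 3 GC boxes (GGGCGG) between -95 and -45, all on the other strand, and an NFAT match at -199 to -195 on the other strand. It also had a TATA match (TATAAA) at -30 to -25, which overlaps a match on the other strand at -32 to -27. GC boxes occurred in 35.7% of promoters and TATA letters in 13.6%. The promoters of Ccr2 and Cxcr6, not printed because neither transcript was called as changed, held 4 and 3 NFAT matches, and Ccr2 also held a GATA match. A match says only that the letters are there.

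With acacetin the transcripts of Ccr4, Ccr8 and Cxcr4 rose and that of Cxcr3 fell, at both concentrations. Of the 6 genes, 5 passed the filter on low counts, and Ccr2 did not. At 5 against 0 μM, 3 of the 5 were called higher and 1 lower at an adjusted p under 0.05 (edgeR's quasi-likelihood test, Benjamini-Hochberg over all 12185 genes tested), where 16.3% of all genes were called higher and 16.8% lower. At 10 against 0 μM the same 3 were called higher and the same 1 lower, where 23.8% and 23.6% of all genes were. Both comparisons share the 0 μM libraries, and 29.9% of all genes were called in 1 direction at both concentrations. Calls were thus frequent over the whole table, and the receptors' calls are to be read against these shares. A change over 1.5-fold with an adjusted p under 0.05, the study's own threshold, was reached by 3 of the 5 at 5 μM, against 3.38% of all genes, and by 4 of the 5 at 10 μM, against 7.50%.

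**Figure D1:**
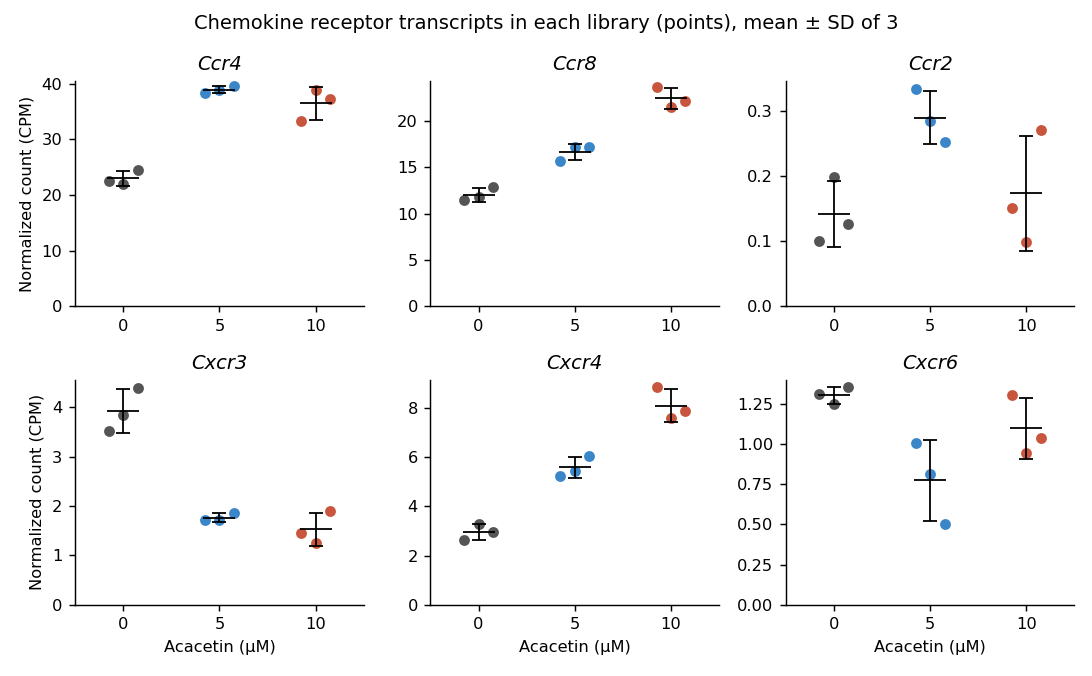
Normalized counts (CPM, vertical axes from 0, scaled per gene) of the 6 receptors in each of 9 libraries against the acacetin concentration, with the mean ± SD of 3 libraries in black. Ccr4 stood at 21.9 to 24.5 CPM at 0 μM and at 33.2 to 39.6 with acacetin, Cxcr3 at 3.52 to 4.39 and then 1.24 to 1.90.

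CCR4 binds CCL17 and CCL22 and guides Th2, skin-homing and regulatory T cells. The Ccr4 transcript had 448, 441 and 580 counts at 0 μM, 804, 956 and 785 at 5 μM, and 662, 784 and 827 at 10 μM. Scaled to depth these were 22.5, 21.9 and 24.5 CPM, then 38.4, 38.9 and 39.6 CPM, then 33.2, 38.9 and 37.3 CPM. Every library with acacetin lay above every library without it, and those of 5 and 10 μM overlapped. The log2 fold change was 0.76 at 5 μM (SE 0.06, 95% interval 0.63 to 0.89, adjusted p = 3.87e-08) and 0.66 at 10 μM (SE 0.06, interval 0.53 to 0.80, adjusted p = 7.93e-08). Between 10 and 5 μM it was -0.09 (interval -0.22 to 0.03, adjusted p = 0.371). Ccr4, alone among the 5 tested receptors, passed the test of whether the 5 μM level lies off the line between the other groups. It exceeded the midpoint of 0 and 10 μM by 0.42 on the log2 scale (SE 0.05, adjusted p = 1.32e-04), where 2.27% of all genes lay above their midpoint by this call and 1.56% below. The Ccr4 counts were not whole in 8 of 9 libraries, so some of its reads were shared out between transcripts or genes, which holds for no other of the 6.

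CCR8 binds CCL1 and, in the mouse, CCL8, and marks Th2 cells and a part of the regulatory T cells. Ccr8 had 228, 237 and 305 counts at 0 μM, 329, 423 and 341 at 5 μM, and 473, 434 and 491 at 10 μM. In CPM these were 11.5, 11.8 and 12.9, then 15.7, 17.2 and 17.2, then 23.7, 21.5 and 22.2. The 3 groups did not overlap, and each step up in concentration brought a higher level. The log2 fold change was 0.47 at 5 μM (SE 0.08, adjusted p = 1.05e-04), under 1.5-fold, and 0.90 at 10 μM (SE 0.07, interval 0.74 to 1.05, adjusted p = 1.14e-08). From 5 to 10 μM it rose by 0.43 (SE 0.07, adjusted p = 6.16e-04), and the 5 μM level held 52.2% of the log2 change at 10 μM. It lay 0.02 from the midpoint (interval -0.11 to 0.15).

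CXCR4 binds CXCL12 and holds lymphocytes in marrow and lymphoid tissue. Cxcr4 had 52, 66 and 70 counts at 0 μM, 110, 134 and 120 at 5 μM, and 176, 153 and 174 at 10 μM, or 2.62, 3.28 and 2.96 CPM, then 5.25, 5.45 and 6.05, then 8.83, 7.59 and 7.85. These groups did not overlap either. The log2 fold change was 0.91 at 5 μM (SE 0.14, interval 0.62 to 1.21, adjusted p = 5.59e-05) and 1.45 at 10 μM (SE 0.13, interval 1.17 to 1.73, adjusted p = 5.16e-08), the latter above that of 99.6% of all genes tested. From 5 to 10 μM it rose by 0.54 (SE 0.12, adjusted p = 0.00813). Without replicate 1 at 10 μM and replicate 2 at 5 μM, the pair with lung and liver transcripts, this last step was 0.45 with an adjusted p of 0.0937. The changes from 0 μM without the pair were 0.93 and 1.39, both called.

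CXCR3 binds CXCL9 and CXCL10, is induced by the Th1 factor T-bet and takes effector T cells into inflamed tissue. Cxcr3 had 70, 77 and 104 counts at 0 μM, 36, 42 and 37 at 5 μM, and 29, 25 and 42 at 10 μM. In CPM these were 3.52, 3.83 and 4.39, then 1.72, 1.71 and 1.87, then 1.46, 1.24 and 1.90. All libraries with acacetin lay below all without it, and the 5 μM libraries lay inside the range of the 10 μM ones. The log2 fold change was -1.15 at 5 μM (SE 0.20, interval -1.58 to -0.73, adjusted p = 2.09e-04) and -1.35 at 10 μM (SE 0.21, interval -1.78 to -0.92, adjusted p = 2.70e-05), below those of all but 0.492% and 0.698% of the genes tested. Between 10 and 5 μM it was -0.19, with an interval of -0.67 to 0.28 (adjusted p = 0.660), which includes both no change and a further drop. In the 5 μM group 85.6% of the log2 change at 10 μM was present.

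CXCR6 binds CXCL16 and is carried by effector and tissue-resident T cells. Cxcr6 had 26, 25 and 32 counts at 0 μM, 21, 20 and 10 at 5 μM, and 26, 19 and 23 at 10 μM, or 1.31, 1.24 and 1.35 CPM, then 1.00, 0.813 and 0.504, then 1.30, 0.943 and 1.04. The 5 μM libraries lay below those of 0 μM and the 10 μM libraries overlapped both. The log2 difference was -0.74 at 5 μM (SE 0.30, interval -1.37 to -0.11, adjusted p = 0.0652) and -0.25 at 10 μM (interval -0.85 to 0.35, adjusted p = 0.497), and neither passed the test. At 5 μM the value changed sides with the method: limma with voom weights gave -0.78 with an adjusted p of 0.0483. Of the 21 alternatives, 3 brought the adjusted p under 0.05, the lowest at 0.0388. The 21 include a test against 1.5-fold, which asks a different question from the others. Cxcr6 lies on the opposite strand inside the span of Fyco1, an autophagosome transport gene at 24.6, 25.7 and 28.7 CPM over the 3 concentrations, and no source used states whether the counting separated strands. Whether Fyco1 reads entered the Cxcr6 counts is therefore not known. Only the spans of the genes were compared, and the Cxcr6 counts were whole in all 9 libraries.

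CCR2 binds CCL2 and, in the mouse, CCL12, and is best known from monocytes. Ccr2 had 2, 4 and 3 counts at 0 μM, 7, 7 and 5 at 5 μM, and 3, 2 and 6 at 10 μM, too few to test. Summed over 3 libraries these were 9, 19 and 11 counts, with exact 95% Poisson intervals of 4.12 to 17.1, 11.4 to 29.7 and 5.49 to 19.7 that cover counting error only. The intervals overlap, which by itself is no test of a difference. Tested without the filter, the log2 difference at 5 μM was 1.00 (interval -0.56 to 2.57, edgeR adjusted p = 0.451). At 10 μM it was 0.30 (interval -1.38 to 1.97, edgeR adjusted p = 0.860), and neither was called.

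**Figure D2:**
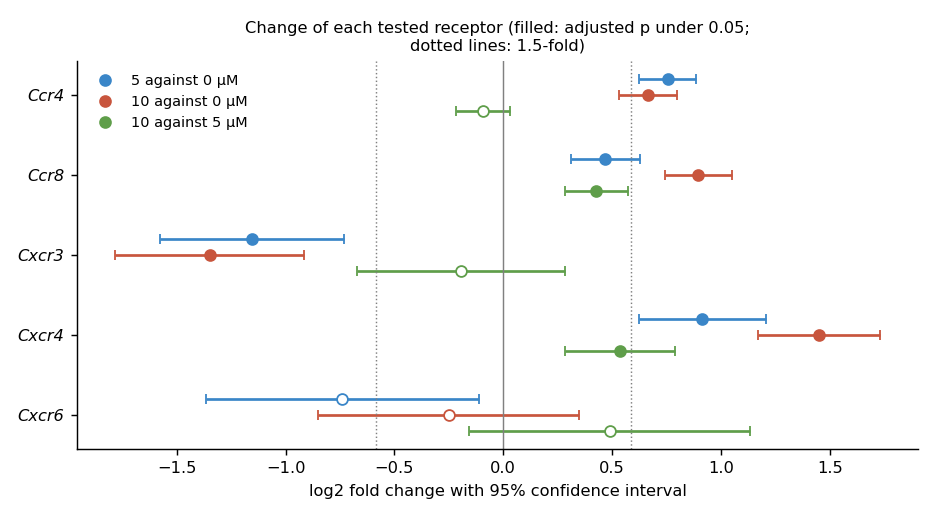
Log2 fold change (horizontal axis) with its 95% confidence interval for the 5 tested receptors in 3 comparisons, filled where the adjusted p is under 0.05. Ccr4, Ccr8 and Cxcr4 lie right of 0 and Cxcr3 left of it at both concentrations, and only Ccr8 and Cxcr4 have a filled point between 10 and 5 μM.

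Between 10 and 5 μM, 2 of the 5 receptors, Ccr8 and Cxcr4, were called higher, where 4.92% of all genes were called higher and 4.09% lower. Neither step exceeded 1.5-fold, which 0.345% of all genes did with a call. Among the 4 changed receptors, Ccr4 held 114% of its 10 μM log2 change at 5 μM and Cxcr3 held 85.6%, against 63.0% for Cxcr4 and 52.2% for Ccr8. Groups without any overlap were common in this table, at 46.4% of all genes for 5 against 0 μM, 54.2% for 10 against 0 and 25.9% for 10 against 5, so the separation of a receptor's libraries alone says little. At 0 μM the coefficient of variation between replicates was 11.3% for Cxcr3, against 10.9% from Poisson counting of its reads, and 6.18% for Ccr8, against 6.24%. Ccr4 at 10 μM exceeded counting noise by the largest ratio of these groups, with 8.06% against 3.63%.

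The receptors differ in transcript length, so their levels were compared as CPM per kilobase of the longest annotated transcript. On this scale the order at 0 μM was Ccr8 at 10.3 ± 0.633, Ccr4 at 8.20 ± 0.478, Cxcr3 at 2.26 ± 0.256, Cxcr4 at 1.64 ± 0.186, Cxcr6 at 0.682 ± 0.0284 and Ccr2 at 0.0248 ± 0.00891 CPM per kb (SD, n = 3), and no neighbours in that order overlapped. At 5 μM Ccr8 (14.2 ± 0.738) and Ccr4 (13.9 ± 0.220) overlapped, and Cxcr4 (3.09 ± 0.232) stood above Cxcr3 (1.02 ± 0.0512). At 10 μM Ccr8 led at 19.1 ± 0.962, before Ccr4 at 13.0 ± 1.05, Cxcr4 at 4.48 ± 0.361, Cxcr3 at 0.884 ± 0.193 and Cxcr6 at 0.574 ± 0.0983. The order of Ccr4 and Ccr8 depends on the length taken. With the median transcript length, which is shorter for Ccr4, it stood at 16.6, 28.2 and 26.4 CPM per kb at 0, 5 and 10 μM and so above Ccr8 at all 3 concentrations, and Cxcr4 at 2.18 overlapped Cxcr3 at 0 μM. A ratio between receptors is free of the scaling between libraries, though its size depends on the lengths. The ratio of Cxcr4 to Cxcr3 was 0.645 to 0.822 in the 0 μM libraries, 2.93 to 3.11 at 5 μM and 3.97 to 5.87 at 10 μM. That of Ccr4 to Cxcr3 was 3.64 ± 0.270, 13.6 ± 0.492 and 15.2 ± 3.73 in this order (SD, n = 3), and that of Ccr8 to Cxcr3 was 4.55 ± 0.239, 13.96 ± 0.762 and 22.3 ± 4.44. By the median length the ratio of Ccr4 to Cxcr3 was 7.39, 27.7 and 30.8 on average.

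**Figure D3:**
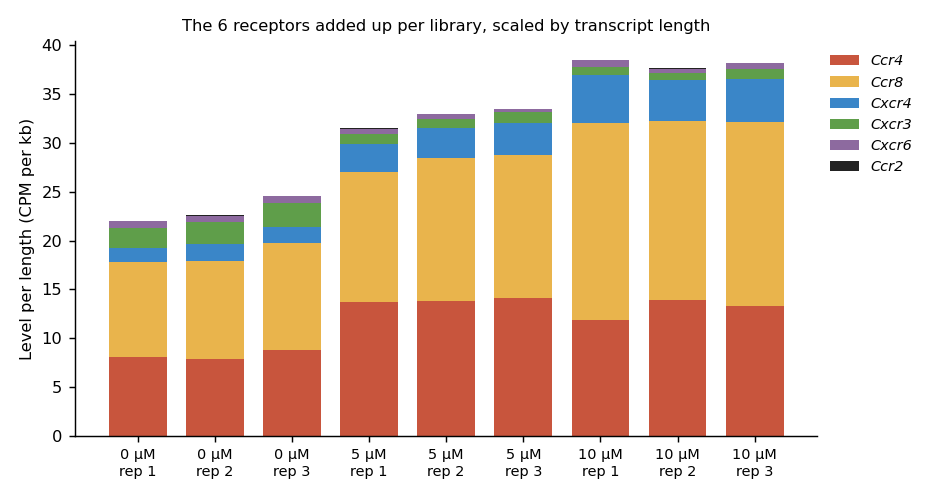
Levels per length (CPM per kb of the longest transcript, vertical axis from 0) of the 6 receptors stacked for each of 9 libraries. The sum was at most 24.6 at 0 μM, 31.5 to 33.5 at 5 μM and 37.6 to 38.5 at 10 μM, and the Cxcr3 share was 9.79%, 3.12% and 2.32% on average.

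Added up on this scale, the 6 receptors reached 23.1 ± 1.38 CPM per kb at 0 μM, 32.7 ± 1.02 at 5 μM and 38.1 ± 0.429 at 10 μM. Ccr4 and Ccr8 made up most of the sum in every library. The share of Cxcr3 was 9.25% to 10.3% at 0 μM, 2.99% to 3.22% at 5 μM and 1.90% to 2.87% at 10 μM, while that of Cxcr4 was 6.59% to 8.06%, 9.15% to 10.0% and 11.2% to 12.7%. The share of Ccr4 was highest at 5 μM, at 42.0% to 43.4%, and that of Ccr8 at 10 μM, at 48.7% to 52.5%. These shares hold for the longest transcript. By the median length the mean share of Ccr4 was 51.9%, 58.7% and 49.8% at 0, 5 and 10 μM, that of Ccr8 32.0%, 29.6% and 36.1%, and that of Cxcr3 7.04%, 2.12% and 1.67%.

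Among the 18 other chemokine receptors, 6 passed the filter, and at both concentrations 3 were called higher and 2 lower, where 16.3% of all genes were higher and 16.8% lower at 5 μM, and 23.8% and 23.6% at 10 μM. The 3 higher include Ccr9, which entered the test only through its counts with acacetin. Ccr7, which brings naive T cells into lymph nodes, had the highest counts of the family. It went from 747 ± 4.77 CPM without acacetin to 946 ± 6.86 at the lower and 1213 ± 20.6 at the higher concentration, log2 changes of 0.34 (adjusted p = 9.54e-09) and 0.70 (adjusted p = 1.81e-13). Ccrl2, an atypical receptor that binds chemerin, rose by 0.41 (adjusted p = 0.00316) and 0.84 (adjusted p = 5.62e-07). Ccr7 and Ccrl2 also rose from 5 to 10 μM, by 0.36 and 0.44. Cxcr5, the receptor of follicular helper T cells, fell from 3.29 ± 0.112 CPM to 2.14 ± 0.657 and 1.58 ± 0.197, by log2 values of -0.60 (adjusted p = 0.0399) and -1.06 (adjusted p = 8.62e-04). Ccr9, the gut-homing receptor, lies next to Cxcr6 and had 3, 3 and 6 counts at 0 μM, 24, 13 and 6 at 5 μM, and 15, 8 and 12 at 10 μM. Its log2 change was 1.78 at 5 μM (interval 0.63 to 2.92, adjusted p = 0.0176) and 1.55 at 10 μM (interval 0.36 to 2.74, adjusted p = 0.0309). Cxcr2, the neutrophil receptor, had log2 differences of -0.49 and -0.55 that were not called. Leaving out single libraries took the call at 5 μM from Cxcr5 without any 1 of the 0 μM libraries or without replicate 1 or 3 at 5 μM (adjusted p up to 0.171), and from Ccr9 without replicate 1 or 2 at 0 μM or replicate 1 at 5 μM (up to 0.153). At 10 μM Ccr9 lost its call without replicate 1 or 2 at 0 μM or replicate 1 or 3 at 10 μM (adjusted p up to 0.115) and without the pair of libraries that stood apart (0.125), while Ccr7, Ccrl2 and Cxcr5 kept theirs in all 9 fits. The remaining 12 receptors had at most 11 counts in any library, and 2 of them were listed at 0 in all 9.

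The ligands of the 6 receptors were scarce in these cultures. Of 12 listed, 9 had at most 11 counts in any library, and 3 were at 0 throughout. Ccl22, a ligand of CCR4, stood at 3.83 ± 0.472, 3.02 ± 0.351 and 3.17 ± 0.694 CPM over 0, 5 and 10 μM. Cxcl16, the ligand of CXCR6, stood at 0.833 ± 0.280, 0.686 ± 0.227 and 0.921 ± 0.133 CPM, and Cxcl10, a ligand of CXCR3, at 0.547 ± 0.0443, 0.609 ± 0.307 and 0.581 ± 0.454. In all 3 comparisons 0 of these 3 were called by edgeR, DESeq2 or limma, and 0 at an unadjusted p under 0.05. The interval of Ccl22 at 10 against 0 μM was -0.64 to 0.12 on the log2 scale.

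The genes through which the receptors signal were read in the same fits. Of the 6 tested G protein genes, 4 were called lower at 5 μM, beside 16.8% of all genes, and 3 at 10 μM, beside 23.6%, with a median log2 difference of -0.12 and -0.14 where the median of all genes was 0.00 in both. Gng2, a gamma subunit, fell by 0.32 and 0.48 on the log2 scale (adjusted p = 1.17e-04 and 6.98e-07). The beta subunits Gnb1 and Gnb2 fell by 0.15 and 0.19 at the lower and 0.18 and 0.14 at the higher concentration, and Gng5 had -0.04 and -0.14, not called. Of the 13 tested genes listed for switching G protein signals off, 1 was called higher and 3 lower at 5 μM, and 2 higher and 4 lower at 10 μM. Read against 16.3% of all genes higher and 16.8% lower at 5 μM and 23.8% and 23.6% at 10 μM, these counts lie near the background and are no result about the list. Rgs2, of a family that speeds G proteins back to rest, fell by 0.48 and 0.71 (adjusted p = 1.93e-06 and 5.45e-09). Whether its product acts on the G proteins of these receptors was not tested. The receptor kinase gene Grk5 fell by 0.46 and 0.57 (adjusted p = 6.50e-04 and 4.54e-05). Rgs10, of the same family as Rgs2, rose by 0.15 and 0.22 (adjusted p = 0.0173 and 8.20e-04). Grk2, another kinase of chemokine receptors, differed by 0.00 at 5 μM and rose by 0.11 at 10 μM (adjusted p = 0.00177).

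Of the 24 tested genes of cell migration, 3 were called in each direction at 5 μM, and 9 higher and 4 lower at 10 μM. Over all genes 16.3% were higher and 16.8% lower at 5 μM, and 23.8% and 23.6% at 10 μM. The counts at 5 μM and those lower at 10 μM are thus under the background, and the 9 higher at 10 μM are over it. The genes named next follow the naming rule given below, so their directions do not show the balance of the list. Rasgrp2, which activates Rap1 and thereby integrins, rose by 0.45 and 0.65 (adjusted p = 0.00260 and 3.87e-05). Itgb1, the beta chain of the VLA integrins, fell by 0.19 and 0.25 (adjusted p = 1.51e-04 and 3.83e-06), and the small GTPase gene Cdc42 by 0.08 and 0.14 (adjusted p = 0.0275 and 2.79e-04). Rap1a, a GTPase that acts on integrins, had -0.03, not called, at the lower concentration and fell by 0.17 at the higher (adjusted p = 1.91e-04). Another integrin beta chain gene, Itgb2, had -0.01 and -0.03, not called, and is named here after its values were seen.

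**Figure D4:**
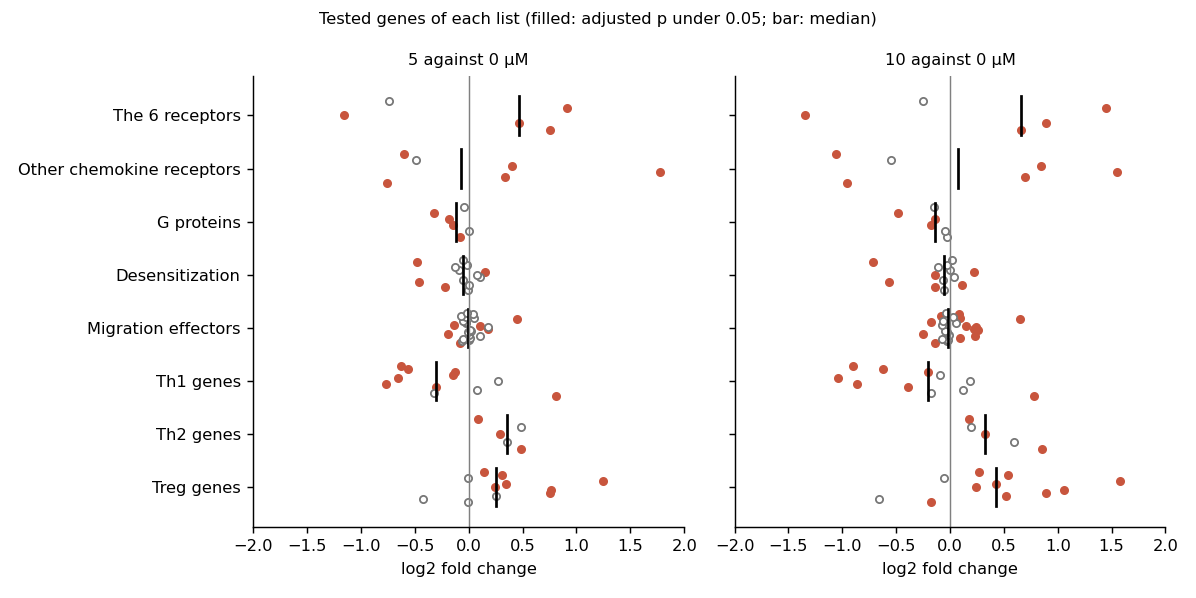
Log2 fold change (horizontal axis) of each tested gene of 8 lists at 5 and at 10 against 0 μM, filled where the adjusted p is under 0.05, with the median of each list as a bar. The medians at 5 and 10 μM are 0.47 and 0.66 for the receptors and -0.07 and 0.08 for the other chemokine receptors. Those of the G protein, desensitization and migration lists lie between -0.14 and -0.01. Genes of both receptor lists spread from under -0.5 to over 0.5. At 10 μM Rgs2 and Grk5 also lie under -0.5 and Rasgrp2 over 0.5.

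The Th1, Th2 and regulatory T cell genes listed as partners of the receptors are counted beside the same shares, 16.3% of all genes higher and 16.8% lower at 5 μM and 23.8% and 23.6% at 10 μM. Of 11 tested Th1 genes, 1 was called higher and 7 lower at 5 μM, and 1 higher and 6 lower at 10 μM. Tbx21, which encodes the Cxcr3 activator T-bet, fell by 0.63 and 0.90 (adjusted p = 7.01e-07 and 3.16e-09), from 28.9 ± 1.16 CPM at 0 μM to 18.7 ± 1.45 and 15.4 ± 0.458. Stat4, which relays IL-12, fell by 0.56 and 0.62, and the IL-12 receptor gene Il12rb1 by 0.31 and 0.39. Eomes, a T-box relative of T-bet, rose by 0.81 and 0.78 (adjusted p = 5.52e-05 and 4.18e-05). Of 5 tested Th2 genes, 3 were called higher at both concentrations. Gata3, the Th2 master factor, rose from 39.3 ± 1.78 CPM to 54.7 ± 1.18 and 70.8 ± 1.53, by 0.48 and 0.85 (adjusted p = 2.38e-07 and 2.61e-11). Il4ra, a chain of the IL-4 receptor, rose by 0.29 and 0.33, and Stat6, which relays IL-4, by 0.09 and 0.17. Il13, a Th2 cytokine, had 0.35 and 0.60, not called.

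Of 11 tested regulatory T cell genes, 7 were called higher at 5 μM, and 8 higher and 1 lower at 10 μM, beside 16.3% of all genes higher at 5 μM and 23.8% higher and 23.6% lower at 10 μM. The costimulator gene Tnfrsf18 rose by 0.31 and 0.53 and the Foxp3 partner gene Ikzf4 by 0.76 and 1.06. Izumo1r, of the folate receptor gene family, rose by 0.35 and 0.42, and Il2ra, the alpha chain of the IL-2 receptor, by 0.24 and 0.24. Each of these changes had an adjusted p under 0.05. Foxp3, the master factor of these cells and named here after its values were seen, had 6.68 ± 0.958 CPM at 0 μM and 9.62 ± 0.928 at 10 μM, with log2 differences of 0.25 (adjusted p = 0.104) and 0.52 (adjusted p = 9.61e-04). Ctla4, the inhibitory receptor, fell by 0.18 at 10 μM (adjusted p = 3.45e-04). The lists were chosen with earlier results of these libraries known, so their directions are no independent evidence. In bulk RNA, more cells of a type and more RNA per cell cannot be told apart, which holds for each receptor here.

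Transcripts that mark other cells were present in small amounts. The 2 CD8 T cell markers summed to 6.92 to 9.13 CPM at 0 μM, 6.87 to 7.82 at 5 μM and 6.45 to 7.43 at 10 μM. Neither was called. The 8 monocyte and macrophage markers summed to 1.31 to 3.68 CPM at 0 μM, 2.60 to 5.65 at 5 μM and 3.38 to 14.4 at 10 μM, the highest in replicate 1. Of these, 3 were tested: Cd68 was called higher at 5 and at 10 μM and Lyz2 at 10 μM. Ly6c2 was not called, with means of 0.416, 0.279 and 0.110 CPM over 0, 5 and 10 μM. Adgre1, too low to test, had means of 0.387, 0.243 and 0.179 CPM. Cd68 had 0.201, 1.54 and 0.423 CPM at 0 μM and 2.41, 2.28 and 2.80 at 10 μM, without overlap. Like Ccr9, it entered the test only through its counts with acacetin, so its call is no independent result. Lyz2 had 11.1 CPM in replicate 1 at 10 μM, while replicates 2 and 3 at 0.397 and 0.677 lay within the 0.352 to 0.718 of the 0 μM libraries, so that 1 library alone stood above them at 10 μM. The 6 dendritic cell markers summed to 0.761 to 1.84, 1.57 to 2.07 and 1.94 to 2.51 CPM, with 2 of them at 0 in every library. Most of this was Zbtb46, the only one tested, with means of 0.801, 1.43 and 1.86 CPM. It was called higher at 10 μM. The 5 NK markers summed to at most 0.248 CPM in any library, with 1 of them at 0 in every library. The part of these cells in the receptor changes was not tested. Without the pair of libraries that stood apart, the same 4 of the 5 tested receptors were called at 5 and at 10 μM.

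The genes whose level followed each receptor most closely over the 9 libraries, by Pearson correlation of log2 CPM among genes averaging at least 3 on that scale, are given as a description. The concentration sets most of such a correlation, since the 9 points are 3 groups of 3. For Ccr4 they were Gbp5 (r = 0.988), Kbtbd11 and Map3k7, whose log2 changes were 0.29, 0.43 and 0.24 at 5 μM and 0.27, 0.40 and 0.23 at 10 μM, alike at both concentrations as for Ccr4 but smaller. For Ccr8 they were Paip2 (r = 0.991), Napa and Sema4a, for Cxcr4 Sash3 (r = 0.996), Vrk3 and Pramel12, for Cxcr3 Bak1 (r = 0.993), Ap1s1 and Mpp6, and for Cxcr6 Pabpc1 (r = 0.927), Cfap36 and Fth1. Vrk3, a nuclear kinase-like gene, had log2 changes of 0.49 and 0.83, and Bak1, a pore former of programmed cell death, of -0.25 and -0.31. Ranked by Spearman correlation, 1 of these 15 genes stayed among the nearest 3. Among the receptors themselves, Cxcr4 and Ccr8 had an r of 0.98 and Cxcr3 and Cxcr4 one of -0.91.

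The genes next to the receptors were taken from the annotation of the preceding assembly. Ccr4, Ccr8, Ccr2 and Cxcr6 all lie on chromosome 9, Cxcr4 on chromosome 1 and Cxcr3 on the X chromosome. Beside Ccr4, the galactosidase gene Glb1 had log2 differences of 0.05 and 0.03 and Trim71 of -0.53 and -0.57, none called. Beside Ccr8, Slc25a38, a mitochondrial glycine carrier, had 0.06 and rose by 0.12 at 10 μM (adjusted p = 0.0262), and Cx3cr1 was too low to test. Beside Cxcr3, Ogt, the enzyme that adds GlcNAc to proteins, rose by 0.29 and 0.33 where Cxcr3 fell. Beside Cxcr4, the aspartyl-tRNA synthetase gene Dars fell by 0.09 and 0.21 where Cxcr4 rose, and Thsd7b was too low to test. The neighbours Ccr3 and Xcr1, both chemokine receptors, were too low to test, and Fyco1 had 0.06 and rose by 0.23 at 10 μM (adjusted p = 0.0160).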

How the data were processed

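RNA-seq was measured in 9 libraries, and groups and replicates were taken from the sample titles. The authors deposited 1 table of expected counts, estimates of the reads of each gene, and name the assembly GRCm39. Their methods name HISAT2 and StringTie for read checking and trimming. For the counting tool, annotation and strand: not given in the sources used here. That the counts are estimates was read from the values, 24.1% of which were not whole, and all were rounded. Of 25757 entries, 964 share 70 symbols and were kept apart.

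Genes were filtered with filterByExpr (12185 kept), normalized by TMM and tested by the quasi-likelihood test of edgeR 4.0.16 in 1 fit of 9 libraries (R 4.3.3). DESeq2 1.42.0, used by the authors on pairs of groups, and limma 3.58.1 were alternatives, beside other scaling, filters, thinning, left-out libraries, a replicate block and a test against 1.5-fold. SE is the log2 change over the root of F. The steps were tested on simulated counts. Replicate pairs differed by a chi-square of 2.00 to 5.44 per gene.

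Same-numbered libraries hardly deviated together (correlations from -0.03 to 0.09 over all genes tested), so the numbers were not taken as pairs. This does not show that they came from different animals. Lengths come from GENCODE and promoters from RefSeq tables of GRCm38, joined by symbol, and all 6 receptors matched. The receptors, lists and tests were chosen with earlier results of these data known. Named are the 6 receptors, other receptors and ligands that passed the filter, up to 4 genes per other list with the smallest adjusted p at 10 against 0 μM and up to 3 called against its direction, the 3 genes most like each receptor, and its neighbours. Of the genes this rule names, 2 are not reported here, though the counts over their lists include them.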

Additional observations from a re-analysis of the deposited data

How the results depend on the processing

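The calls of Ccr4, Ccr8, Cxcr3 and Cxcr4 against 0 μM held under every alternative except a test against 1.5-fold itself. Under that test (edgeR's glmTreat) 0 receptors were called at 5 μM (3 at an unadjusted p under 0.05) and 3 at 10 μM. At 5 μM Ccr4 had 0.76 (adjusted p = 0.252), Ccr8 0.47 (1), Cxcr3 -1.15 (0.209) and Cxcr4 0.91 (0.439), and at 10 μM Ccr4 had 0.66 (0.789). Between 10 and 5 μM 0 receptors were called (0 at an unadjusted p under 0.05), with Ccr8 at 0.43 and Cxcr4 at 0.54. Without replicate 1 at 10 μM and replicate 2 at 5 μM together, 1 receptor was called between 10 and 5 μM and Cxcr4 had 0.45 (adjusted p = 0.0937). For Cxcr6 at 5 μM the adjusted p fell under 0.05 with at least 10 counts in every library (-0.74, 0.0388), with limma voom (-0.78, 0.0483) and with counts thinned to the smallest library (-0.83, 0.0494). The cause was not tested. With the median transcript length the levels at 0 μM were 16.6 CPM per kb for Ccr4, 0.0436 for Ccr2 and 2.18 for Cxcr4. Of the 15 genes most like a receptor, 15 stayed with a prior count of 0.5 and 1 with Spearman correlation.

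With single libraries left out, the log2 change at 5 μM ranged from 0.72 to 0.81 for Ccr4, 0.43 to 0.52 for Ccr8, -1.22 to -1.06 for Cxcr3, 0.84 to 0.99 for Cxcr4 and -0.95 to -0.52 for Cxcr6, and 4 receptors were called each time. At 10 μM it ranged from 0.62 to 0.73, 0.86 to 0.95, -1.54 to -1.22, 1.38 to 1.53 and -0.39 to -0.16, again with 4 called. Over all genes, the calls between 10 and 5 μM went from 1097 to between 617 and 1467. The replicate number was also fitted as a block, although the labels do not say whether equal numbers share animals. This changed no call of a receptor (4 called at 5 μM, 4 at 10 μM, 2 between them). Over all genes it gave 3941, 5728 and 994 calls against 4036, 5769 and 1097. Other scalings moved the median of all genes by at most 0.02. Of 336 counts over the other lists, 305 stayed within 1.5 times, and the other receptors called at 5 μM went from 5 to 2 with DESeq2.

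Precision is limited by counts: Cxcr3 and Cxcr6 had at most 104 and 32 in a library and Ccr2 at most 7. Most alternatives share the same 9 libraries.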
